A study of Gracilariopsis lemaneiformis with 12 samples.

Results

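A set of 63 loci of the red seaweed Gracilariopsis lemaneiformis stood higher at day 3 than at day 1, both in untreated tissue and in tissue given the auxin indole-3-acetic acid (IAA), and differed little between the treatments on either day. The 63 loci are 53 single assembled sequences and 10 clusters of contigs, out of 5512 loci whose highest group mean reached 5 FPKM and 25766 loci in all. FPKM is a fragment number scaled to sequence length and library size, so levels of different loci can be set side by side per length. The loci were chosen by their group means over all 12 libraries, on log2(FPKM + 1). The difference between day 3 and day 1 had to be at least 0.6 in the controls and at least 0.6 with IAA. The difference between IAA and control had to stay under 0.4 at day 1 and under 0.5 at day 3, in either direction. Levels and differences of these loci are therefore descriptions, given with no test.

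The 12 libraries fall into 4 groups of 3. All come from strain 981 and carry the tissue label rhizoids. They are untreated controls and tissue given 100 µM IAA, each collected at day 1 and at day 3. The design text of the series mentions branches as well, and one reading of it is that different tissue was taken on each day, so time and tissue cannot be told apart in a comparison of days. No source says whether replicates were grown as separate cultures, so the p-values below cover the spread among these libraries only, and that spread may be technical. In whole tissue, fewer cells of a type and less RNA per cell cannot be told apart either.

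Gracilariopsis lemaneiformis is farmed for agar, a gel-forming galactan of its cell walls, and grows by branching from an axis. IAA is an auxin, a growth hormone best known from land plants, where it is perceived by a receptor complex that releases transcription factors from repression, and where it acts on cell elongation, branching and rooting. Red algae contain IAA too, but the way they sense it is less well understood. The files do not pair sequence IDs with gene names or with sequences, so no function is given for any locus and no gene list or tissue marker could be applied. An ID beginning with CL is read here as a cluster of related contigs from its form, which no label explains, and the FPKM of its contigs was summed.

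Summed FPKM per library lay between 291205 and 308835. The relative depth of the libraries, read from the smallest values of 681 scarce sequences taken as 1 read, lay between 0.974 and 1.02, and 1 read of these was worth a median of 0.253 FPKM. Depth hardly differed between libraries. Every member reached at least 5.35 FPKM in its highest group, but group means at day 1 went down to 0.777 FPKM. That level may be few reads, but the number depends on sequence length, which is not known for the members. Over all 5512 loci the median difference between day 3 and day 1 was -0.07 in the controls and -0.03 with IAA. A difference of at least 0.6 was found for 199 loci in the controls and 313 with IAA, and one of -0.6 or lower for 1055 and 236 loci. The balance of the controls depended on the scaling of the libraries: with median-of-ratios size factors 823 loci stood at least 0.6 higher and 776 at least 0.6 lower, and with quantile normalization 384 and 591.

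The 111 loci that stood at least 0.6 higher at day 3 in both treatments made up 55.8% of the control list and 35.5% of the IAA list. The limits on the IAA difference left out 48 of these 111, which leaves the 63. At day 3, 29 of the 48 were at least 0.5 higher with IAA and 4 at least 0.5 lower. At day 1, 9 were at least 0.4 higher with IAA and 11 at least 0.4 lower, and a locus could fail on both days. The same limits with the opposite sign held 78 loci that stood lower at day 3 in both treatments.

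Among the 63 loci the difference between days had a median of 0.97 in the controls, from 0.60 to 2.38. With IAA it had a median of 1.07, from 0.64 to 2.77. As a ratio of mean FPKM, day 3 was 1.59 to 6.36 times day 1 in the controls, with a median of 2.10. With IAA the ratio was 1.56 to 6.93, with a median of 2.37. The ratio reached 2 in 32 members in the controls and in 43 with IAA, and in both treatments in 29. It reached 4 in 7 members in the controls and in 12 with IAA. Most members therefore changed by moderate factors, and a small number stood out at the top.

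In all 63 members the 3 control libraries of day 3 lay above the 3 of day 1, which held for 25.2% of the 5512 loci. The 3 IAA libraries of day 3 also lay above those of day 1 in all 63, against 27.5% of the loci. All 6 libraries of day 3 lay above all 6 of day 1 in all 63, against 9.45% of the loci. The choice used these contrasts, so nothing is read from the counts beyond the absence of any member with overlapping days. The difference in the controls was at least 1 in 30 members, against 1.42% of the loci, and with IAA in 34, against 2.79% of the loci. It reached 1 in both treatments in 23 members and in neither in 22.

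**Figure D1:**
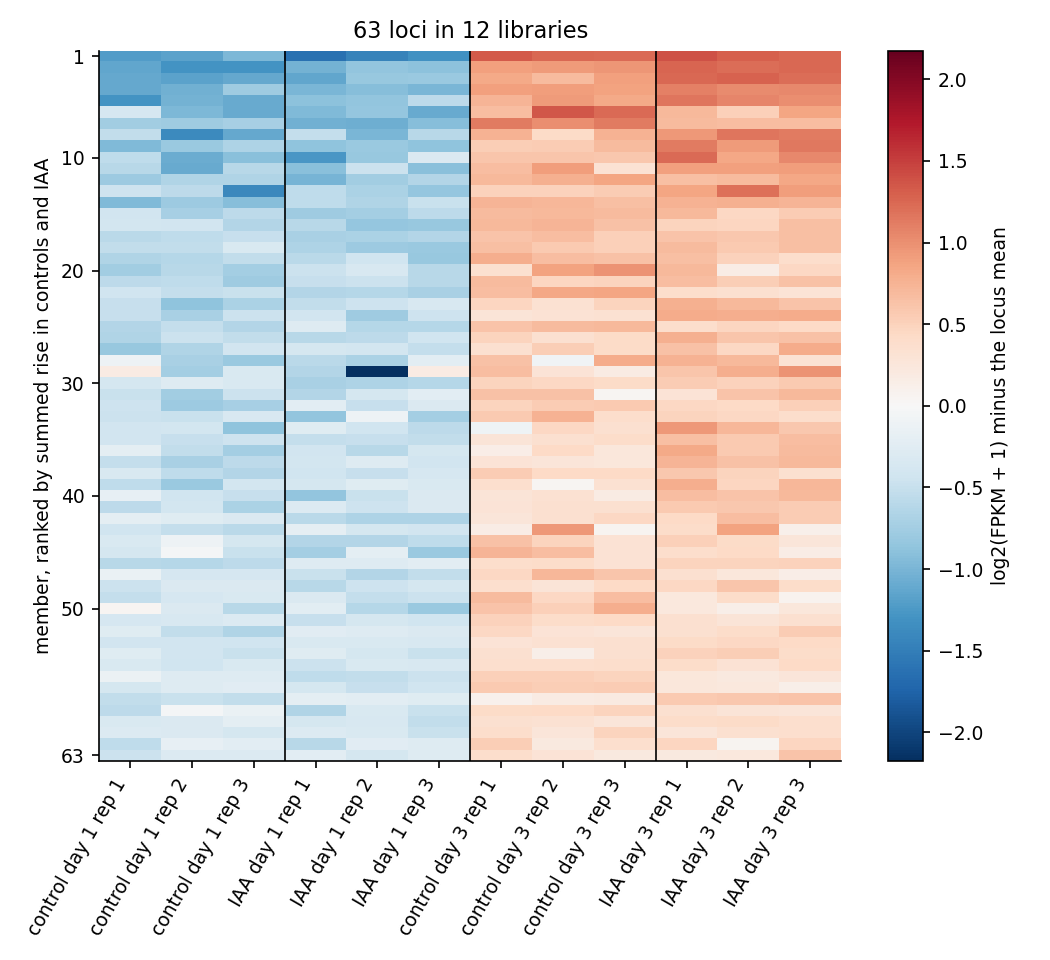
Level of each of the 63 loci (vertical axis, ranked by the summed difference over time in controls and IAA) in each of the 12 libraries (horizontal axis), as log2(FPKM + 1) minus the mean of that locus over the libraries. Every locus is lower in the 6 libraries of day 1 than in the 6 of day 3; the darkest cell is the 1 value listed at 0, in replicate 2 of IAA at day 1.

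Unigene7417_All had the largest difference in both treatments and was among the most abundant members. In the controls it was measured at 66.65, 68.87 and 79.02 FPKM at day 1 and 392.76, 370.54 and 366.63 FPKM at day 3. With IAA it was measured at 50.24, 56.54 and 61.90 FPKM at day 1 and 410.86, 386.88 and 370.86 FPKM at day 3. The lowest library of day 3 thus stood several times above the highest of day 1. Its mean went from 71.5 ± 6.60 to 377 ± 14.1 FPKM in the controls (SD, n = 3), a ratio of 5.27 and a difference of 2.38 on the log2 scale. With IAA its mean went from 56.2 ± 5.84 to 390 ± 20.1 FPKM (SD, n = 3), a ratio of 6.93 and a difference of 2.77. At day 1 every IAA library lay below every control library, a difference of -0.34, while at day 3 the treatments overlapped, with a difference of 0.05.

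Unigene4506_All had the second largest difference in both treatments, at a much lower level. In the controls it was measured at 7.03, 6.19 and 6.22 FPKM at day 1 and 31.68, 32.68 and 33.23 FPKM at day 3. Under IAA its values were 7.70, 8.74 and 8.49 FPKM at day 1 and 41.52, 40.06 and 41.16 FPKM at day 3. Here the IAA libraries lay above the controls on both days, without overlap. The difference between IAA and control was 0.32 at day 1 and 0.32 at day 3, so that the change over time was nearly the same: 2.16 in the controls, a ratio of 5.02, and 2.17 with IAA, a ratio of 4.92. Means were 6.48 ± 0.477 and 32.5 ± 0.786 FPKM in the controls and 8.31 ± 0.543 and 40.9 ± 0.761 FPKM with IAA (SD, n = 3).

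The next member by summed difference was a cluster of 2 contigs. In the controls it was measured at 2.91, 2.75 and 2.91 FPKM at day 1 and 13.97, 12.67 and 14.71 FPKM at day 3, a ratio of 4.82. The IAA libraries gave 2.84, 3.79 and 3.82 FPKM at day 1 and 19.12, 19.58 and 18.50 FPKM at day 3, a ratio of 5.47. Its treatments overlapped at day 1, and every IAA library lay above every control library at day 3. The fourth member by this order, a single sequence, went from 14.3 ± 1.98 to 54.5 ± 0.771 FPKM in the controls and from 14.3 ± 0.376 to 61.0 ± 1.43 FPKM with IAA (SD, n = 3). Its treatments overlapped at day 1 and did not overlap at day 3, where IAA was higher. The largest ratio in the controls, 6.36, belonged to the least abundant member, which went from 1.02 ± 0.574 to 6.51 ± 1.74 FPKM (SD, n = 3). That ratio rests on a low day 1 level that may be few reads. On the log2(FPKM + 1) scale the member's difference was 1.89, below that of the 2 loci named above.

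Members differed widely in abundance. The highest group mean had a median of 13.8 FPKM and ran from 5.35 to 390 FPKM, against a median of 29.6 FPKM over all 5512 loci. The median member stood at 5.21 FPKM in control day 1, 12.1 FPKM in control day 3, 5.57 FPKM in IAA day 1 and 12.2 FPKM in IAA day 3. The median over all loci stayed near one level in the same groups, at 27.4, 25.1, 26.3 and 26.1 FPKM. Of the members, 24 had a highest group mean of 5 to 10 FPKM, 16 of 10 to 20, 16 of 20 to 100 and 7 of at least 100. Those classes held 38.1%, 25.4%, 25.4% and 11.1% of the members and 20.2%, 16.7%, 51.7% and 11.4% of the 5512 loci. Members were thus placed more often in the lowest class and less often between 20 and 100 FPKM than the loci at large, a description with no test.

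The ratio of day 3 to day 1 was larger in the less abundant classes. Its median in the controls was 2.67 in the class of 5 to 10 FPKM, 2.13 in the class of 10 to 20, 1.76 in the class of 20 to 100 and 1.85 in the class of at least 100. With IAA the medians were 2.65, 2.13, 2.05 and 1.76 in the same order. The limit of 0.6 on log2(FPKM + 1) asks for a larger ratio at a low level, so the choice itself sets part of this order. None of the 24 members of the lowest class was a cluster, and 3 of the 7 most abundant members were. Clusters made up 15.9% of the members and 30.2% of the 5512 loci.

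The most abundant member by mean level was a single sequence measured at 149.05, 153.75 and 158.44 FPKM in control day 1 and at 346.89, 357.73 and 320.53 FPKM in control day 3. Treated tissue gave 137.70, 139.20 and 143.62 FPKM at day 1 and 346.65, 337.52 and 353.58 FPKM at day 3. Day 3 was 2.22 times day 1 in the controls and 2.47 times with IAA, with the treatments overlapping at day 3 and IAA lower at day 1. The next members in this order, a cluster of 2 contigs and a single sequence, stood lower with IAA on both days, in every library. The cluster went from 184 ± 8.99 to 333 ± 5.09 FPKM in the controls and from 167 ± 6.79 to 261 ± 10.1 FPKM with IAA (SD, n = 3). The single sequence went from 183 ± 17.1 to 338 ± 32.5 FPKM in the controls and from 151 ± 8.02 to 266 ± 18.4 FPKM with IAA (SD, n = 3). At control day 3 the libraries of these first 3 members overlapped, while those of Unigene7417_All, the next by mean level, all lay above the libraries of the first member and of the cluster. At IAA day 3 the first member lay above the next 2, which overlapped each other.

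The fifth and sixth members, both clusters, stood higher with IAA on both days, in every library. CL1208, of 5 contigs, went from 113 ± 1.25 to 191 ± 3.71 FPKM in the controls and from 120 ± 1.33 to 205 ± 2.20 FPKM with IAA (SD, n = 3). CL880, of 2 contigs, went from 59.1 ± 0.892 to 116 ± 3.77 FPKM in the controls and from 74.4 ± 1.43 to 127 ± 0.728 FPKM with IAA (SD, n = 3). The seventh member, a single sequence, stood lower with IAA at day 1 and higher at day 3, at 64.4 ± 1.98 and 50.9 ± 1.39 FPKM at day 1 and 111 ± 3.10 and 119 ± 3.29 FPKM at day 3 in controls and IAA (SD, n = 3). By the rule, the abundant members shared the rise between days and had a small IAA difference. Within its limits, that IAA difference went in either direction among them.

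**Figure D2:**
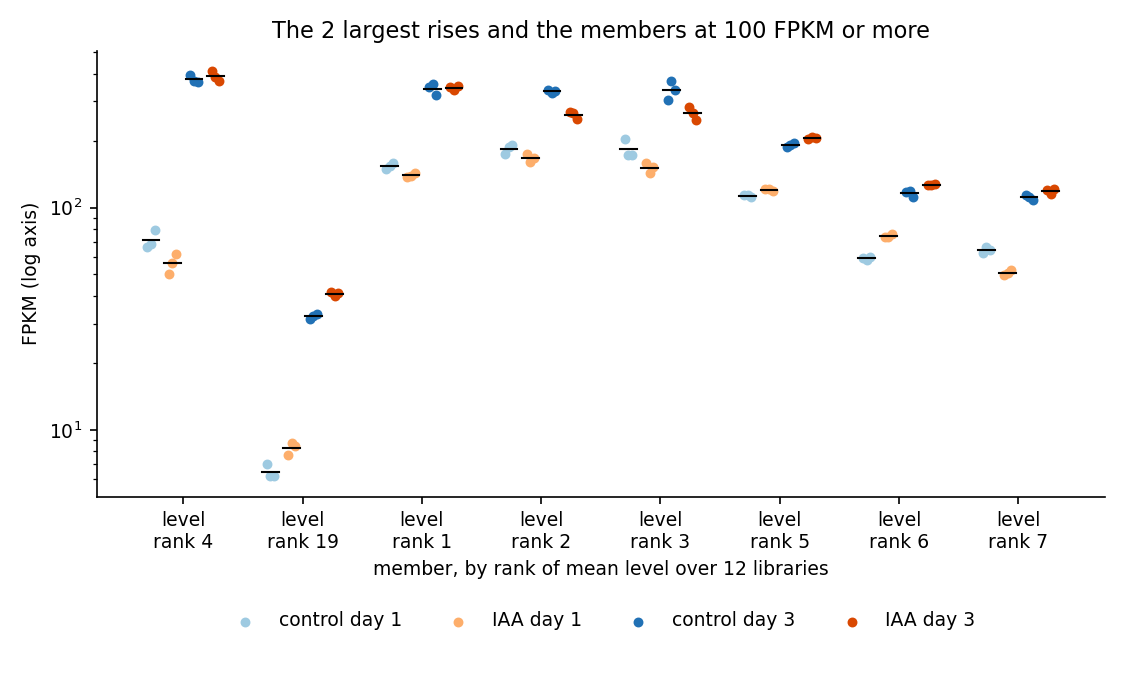
FPKM (vertical log axis) of the members with the largest differences over time, Unigene7417_All (level rank 4) and Unigene4506_All (level rank 19), and of the other members whose highest group mean was at least 100 FPKM, placed by rank of mean level (horizontal axis). Points are libraries and bars are the means of 3; in each locus the 6 points of day 3 lie above the 6 of day 1.

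The members together held 0.444 ± 0.00206% of the summed FPKM in control day 1 and 0.987 ± 0.00769% in control day 3 (SD, n = 3). With IAA they held 0.424 ± 0.00564% at day 1 and 0.947 ± 0.0137% at day 3 (SD, n = 3). The sum of the members' FPKM went from 1344 to 2900 in the controls and from 1280 to 2906 with IAA. The 5 most abundant members held 54.5% of the members' FPKM in control day 3 and the 10 most abundant 70.1%, so the sums mostly follow these. Within a group, members varied somewhat more between replicates than other loci did. The median coefficient of variation of a member was 9.34% in control day 1, 6.19% in control day 3, 8.14% in IAA day 1 and 5.17% in IAA day 3. Over all 5512 loci, which were more abundant, it was 4.05%, 3.40%, 3.53% and 3.12%.

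The change over time was larger with IAA than in the controls in 41 members, or 65.1%, and larger in the controls in 22. Over all 5512 loci it was larger with IAA in 62.6%, so the members' share was close to the background. The median difference between both changes was 0.04 in the members and 0.07 over all loci. It lay within 0.25 in 43 members and ran from -0.54 to 0.73, and the limits on the IAA differences restrict it. Across the members the changes in controls and IAA had a Pearson correlation of 0.823 and a Spearman correlation of 0.627 (n = 63 loci, which are not independent replicates), against a Pearson correlation of 0.538 over all loci. The limits that chose the members also bound this correlation.

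At the upper end of that range stood a scarce single sequence. It was measured at 4.09, 1.70 and 2.59 FPKM in control day 1 and at 6.23, 4.56 and 4.12 FPKM in control day 3, a difference of 0.65. With IAA it was measured at 1.91, 0 and 4.11 FPKM at day 1 and 5.87, 6.79 and 7.91 FPKM at day 3, a difference of 1.39. It was the single member listed at 0 in any library, and its replicates at day 1 spread over most of their own level. At the lower end stood another scarce sequence, which went from 1.67 ± 0.159 to 6.33 ± 1.57 FPKM in the controls, a difference of 1.46. With IAA it went from 2.13 ± 0.265 to 4.93 ± 1.11 FPKM (SD, n = 3), a difference of 0.92, and its treatments overlapped at day 3.

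**Figure D3:**
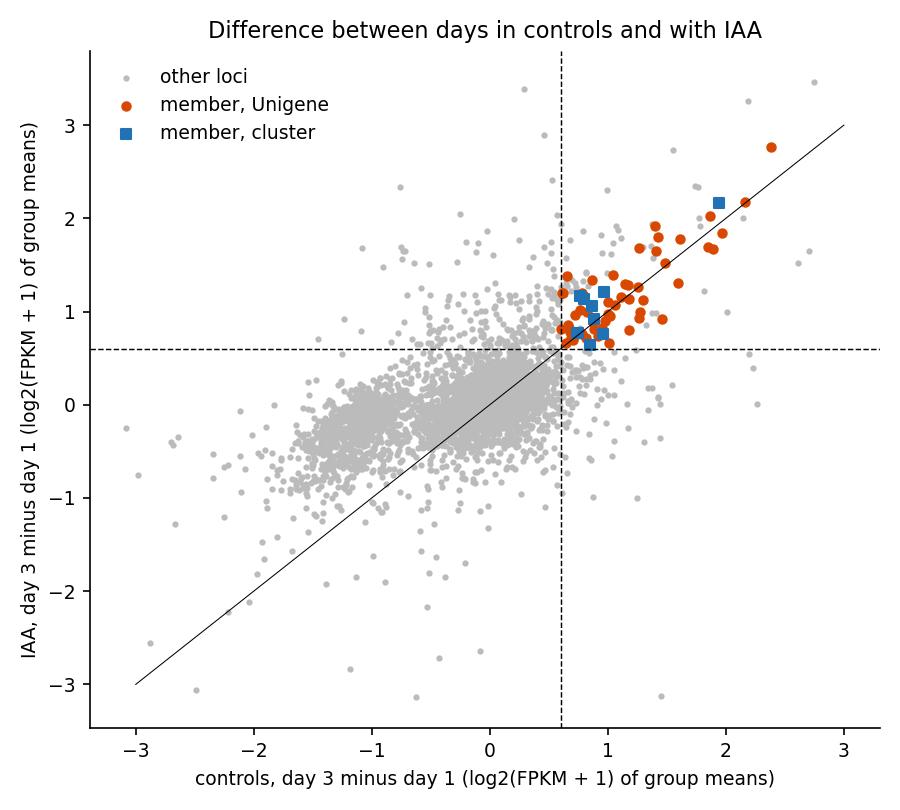
Difference between day 3 and day 1 in the controls (horizontal axis) and with IAA (vertical axis), on log2(FPKM + 1) of group means, for the 5512 loci; dashed lines mark 0.6 and the solid line marks equal differences. The 63 members, shown by kind, lie near the line of equal differences, with Unigene7417_All at 2.38 and 2.77 farthest out; other loci beyond both dashed lines exceeded a limit on the IAA difference.

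The IAA difference that remained was small by choice, with a median of 0.003 at day 1, from -0.38 to 0.37, and of 0.08 at day 3, from -0.45 to 0.50. At day 1 all 3 IAA libraries lay above all 3 controls in 10 members, against 15.3% of the 5512 loci, and below them in 13, against 33.9% of the loci. At day 3 they lay above in 24, against 36.7% of the loci, and below in 10, against 27% of the loci. As shares of the 63 these are 15.9%, 20.6%, 38.1% and 15.9%, and the limits on the IAA difference bear on each of them. The median difference was 0.27 in the 10 members above at day 1 and -0.27 in the 13 below. It was 0.36 in the 24 above at day 3 and -0.35 in the 10 below.

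The IAA difference had the same sign on both days in 48 members, or 76.2%, against 48.3% of the 5512 loci. IAA lay above control in all libraries on both days in 7 members, or 11.1%, against 6.24% of the loci. IAA lay below on both days in 6, or 9.52%, against 10.7%. It lay below at day 1 and above at day 3 in 2, or 3.17%, against 11.6%. The opposite order was found in 0 members, against 4.55%. In 21 members, or 33.3%, the treatments overlapped on both days, against 20.2% of the loci. In 20, or 31.7%, the IAA difference was under 0.2 on both days, against 51.3%. The limits on the IAA difference bear on each of these counts, and nothing further is read from them. The locus nearest to no difference was the cluster CL401, whose summed FPKM was 39.1 ± 1.76 and 38.5 ± 2.03 at day 1 and 65.8 ± 0.391 and 66.2 ± 2.99 at day 3, in controls and IAA (SD, n = 3). Its IAA difference was -0.02 at day 1 and 0.01 at day 3.

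The edges of the rule cut through a continuous range of loci. The member nearest to the limit of 0.6 had a difference of 0.60 in the controls, and the nearest locus outside by that limit alone had 0.60 too, a gap smaller than the rounding. With IAA the values inside and outside were 0.64 and 0.57. For the IAA difference they were -0.38 inside and 0.43 outside at day 1, and 0.4985 inside and 0.5004 outside at day 3. For the highest group mean they were 5.35 and 4.97 FPKM. The loci that failed 1 limit alone numbered 41 for the control difference, 31 for the difference with IAA, 15 and 28 for the IAA difference at day 1 and day 3, and 61 for the highest group mean.

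The same measure was read in libraries left out of the choice. The rule was applied to the libraries of 2 replicate numbers, and the differences were read in those of the number left out. The loci chosen without replicate numbers 1, 2 and 3 numbered 65, 65 and 64, of which 50, 51 and 52 were among the 63. In the libraries left out, both differences over time were at least 0.6 in 45 of the 65, 46 of the 65 and 49 of the 64 loci. Over all loci at 5 FPKM or more the same held for 2.38%, 2.34% and 2.09%. Both differences were above 0 in 64, 60 and 61 of the chosen loci. The median difference in the libraries left out was 0.87, 0.91 and 0.96 in the controls and 1.15, 1.00 and 1.05 with IAA. All the limits at once, including those on IAA, were met in the libraries left out by 31, 30 and 37 loci. In the libraries left out, the direction over time was the same in most chosen loci, while the IAA limits were met by fewer. Each value there has 1 library per group behind it. The limits of the rule were set with earlier results of these data known, and the spread among replicates may be technical. These counts are therefore descriptions and no independent support for the rule.

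How many loci met the rule depended on the scaling of the libraries. Median-of-ratios size factors moved the median difference over time of all loci by 0.40 in the controls and by 0.11 with IAA, and 154 loci then met the rule. Under the 4 scalings tried in place of the deposited one, size factors among them, 2 to 10 of the members broke a limit on the IAA difference. Relative to the median of all loci, the members' median in the controls was 1.04 as deposited, 1.02 with size factors and 1.21 with quantile normalization. With IAA it was 1.10, 1.09 and 1.15 in the same order.

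**Figure D4:**
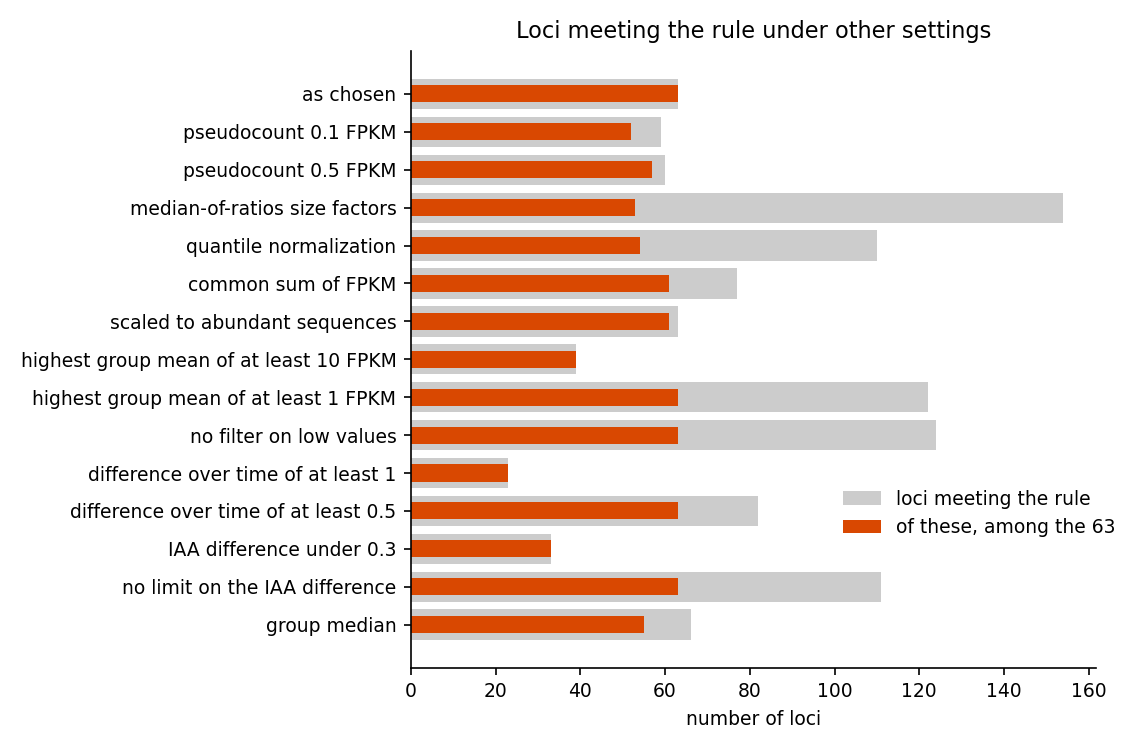
Number of loci meeting the rule (horizontal axis, grey bars) under each of the settings on the vertical axis, and how many of those are among the 63 loci (orange bars). Size factors give 154 loci, of which 53 are among the 63, and quantile normalization 110, of which 54 are among the 63.

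The rule summed the contigs of a cluster, and how the sum was divided among the contigs was not part of it. Of the 10 member clusters, 9 had at least 2 contigs and 8, with 27 contigs, could be tested. The test was limma on log2 of the ratio of a contig's FPKM to that of the other contigs of its cluster, each with 1 FPKM added, with Benjamini-Hochberg adjustment over 4616 contigs of 1532 clusters. It is not wholly independent of the choice: the sums rose by selection, so a contig that kept its level lost share. In a cluster of 2 contigs both values mirror each other, and a cluster of many contigs has more chances of a call. How reads matching more than 1 contig of a cluster were divided was not given, and its effect on the shares was not tested. In control day 3, 1 contig of CL882 was at 26.52, 23.09 and 19.94 FPKM in replicates 1, 2 and 3. Another contig of that cluster was at 24.85, 29.69 and 31.16 FPKM in the same libraries. The log2 ratios below are differences of the tested measure, with standard errors.

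Between day 3 and day 1 in the controls, at least 1 contig changed share at an adjusted p under 0.05 in limma in 6 of the 8 clusters, against 19.5% of all clusters, with 5 contigs that rose and 10 that fell. With IAA the same held in 4 of the 8, against 15.6%, with 3 contigs that rose and 6 that fell. Between IAA and control it held in 1 of the 8 at day 1, against 8.75%, and in 3 of the 8 at day 3, against 9.27%. The clusters called at day 3 were CL2526, CL401 and the most abundant cluster. The effect of IAA on share differed between the days in 3 of the 8, against 7.25%, and in 1 or 2 when any single library was left out. Changes of share over time were found in CL2526, CL1208 and the most abundant cluster in both treatments. CL882 had such changes in both treatments too, but in different contigs. In the controls they were found in CL401 and CL880 as well.

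The controls' count was 3 without control day 1 replicate 3 and 3 without control day 3 replicate 1. The count for IAA against control at day 3 was 1 without any one of the 3 control libraries of day 3, and 1 without replicate 1 or replicate 3 of IAA at day 3. The count at day 1 was 0 without replicate 2 or 3 of the controls at day 1, any control library of day 3, or replicate 1 or 3 of IAA at day 3. Same-numbered libraries of day 1 deviated together, and with the replicate number as a block the count at day 1 was 0, both in the fit of all groups and in that of day 1 alone. The count for the change of the IAA effect was 2 without control day 1 replicate 1 or replicate 1 or 3 of IAA at day 1, and 1 without any one of the other 9 libraries.

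CL2526, a cluster of 23 contigs of which 8 could be tested, gave the clearest change of contig shares. Its contig CL2526.Contig11_All was measured at 17.14, 16.94 and 17.40 FPKM in control day 1 and at 52.67, 53.23 and 51.49 FPKM in control day 3. In IAA-treated tissue it reached 18.33, 21.84 and 18.89 FPKM at day 1 and 58.57, 56.39 and 57.92 FPKM at day 3. This contig stood far higher at day 3 in both treatments, 3.06 times day 1 in the controls and 2.93 times with IAA, and was little different between treatments, at 1.15 and 1.10 times control at day 1 and day 3.

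The other 22 contigs of CL2526 did not follow it. Their sum was 18.71, 14.57 and 17.33 FPKM in control day 1 and 11.44, 9.22 and 10.59 FPKM in control day 3. With IAA their sum was 20.63, 20.47 and 19.88 FPKM at day 1 and 28.92, 24.61 and 26.89 FPKM at day 3. In the controls the sum at day 3 was 0.617 times that at day 1, with no overlap, and with IAA it was 1.32 times that at day 1, again with no overlap. At day 3 IAA stood at 2.57 times control, against 1.20 times at day 1. The cluster thus met the rule by its total, and in the controls that total was higher while the other 22 contigs together were lower.

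The share of CL2526.Contig11_All in its cluster was 50.6 ± 3.00% in control day 1, 83.4 ± 1.60% in control day 3, 49.1 ± 2.31% in IAA day 1 and 68.3 ± 1.34% in IAA day 3 (SD, n = 3). In limma with Benjamini-Hochberg adjustment, its log2 ratio rose over time by 2.20 ± 0.12 (SE) in the controls, with an adjusted p of 2.139e-06. With IAA it rose by 1.13 ± 0.12 (SE), with a limma adjusted p of 0.000194. IAA and control differed by -1.15 ± 0.12 (SE) at day 3 in limma, with an adjusted p of 0.000391, and by -0.08 ± 0.12 (SE) at day 1, with an adjusted p of 0.822. Among the other contigs, CL2526.Contig24_All went from 4.60 ± 1.09 to 0.823 ± 0.752 FPKM in the controls and from 5.48 ± 1.23 to 0.543 ± 0.315 FPKM with IAA (SD, n = 3). Its log2 ratio fell by 2.74 ± 0.32 (SE) in the controls and by 3.33 ± 0.32 (SE) with IAA, with limma adjusted p of 0.000256 and 8.989e-05. Within a cluster counted as rising, this contig was lower at day 3 in both treatments.

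The other named contigs of CL2526 were scarce. A further one, described after its values were seen, was measured at 7.41, 5.42 and 5.28 FPKM in IAA day 3 and had a mean of 2.14 FPKM in control day 3. Its means at day 1 were 1.99 FPKM in the controls and 3.10 FPKM with IAA. It was not called between IAA and control at day 3, with a limma adjusted p of 0.146 for its log2 ratio. CL2526.Contig15_All was measured at 0.313 ± 0.223 FPKM in control day 3 and 2.13 ± 0.148 FPKM in IAA day 3 (SD, n = 3), without overlap. Its log2 ratio was higher with IAA at day 3 by 0.87 ± 0.14 (SE), with a limma adjusted p of 0.00461. With 0.1 FPKM added in place of 1 that difference was 2.16, at a limma adjusted p of 0.00317. CL2526.Contig25_All stood at 1.86 ± 0.554 FPKM in IAA day 1 and 2.28 ± 0.369 FPKM in IAA day 3 (SD, n = 3). It fell in log2 ratio by 0.87 ± 0.18 (SE) over time with IAA, at a limma adjusted p of 0.0116, while its own level overlapped between the days. With 0.1 FPKM added in place of 1 its limma adjusted p was 0.0938, and with IAA libraries fitted alone it was 0.0716.

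In CL1208 the rise was spread over 4 of the 5 contigs, and 1 contig stood nearly still. CL1208.Contig3_All was measured at 10.93, 13.21 and 13.18 FPKM in control day 1 and at 41.34, 37.54 and 37.79 FPKM in control day 3. The IAA libraries gave 13.51, 14.75 and 13.72 FPKM at day 1 and 43.61, 47.86 and 43.22 FPKM at day 3. Every IAA library lay above every control library on both days, by a small margin at day 1. Its share of the cluster went from 11.0 ± 1.24% to 20.4 ± 1.49% in the controls and from 11.6 ± 0.506% to 21.9 ± 1.06% with IAA (SD, n = 3). Its log2 ratio rose by 1.03 ± 0.10 (SE) over time with IAA and by 0.98 ± 0.10 (SE) in the controls, with limma adjusted p of 0.000109 and 0.000116. The contig that stood nearly still was at 32.7 ± 0.992 and 36.8 ± 0.990 FPKM in the controls and at 33.8 ± 2.31 and 36.3 ± 2.19 FPKM with IAA, at day 1 and day 3 (SD, n = 3).

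**Figure D5:**
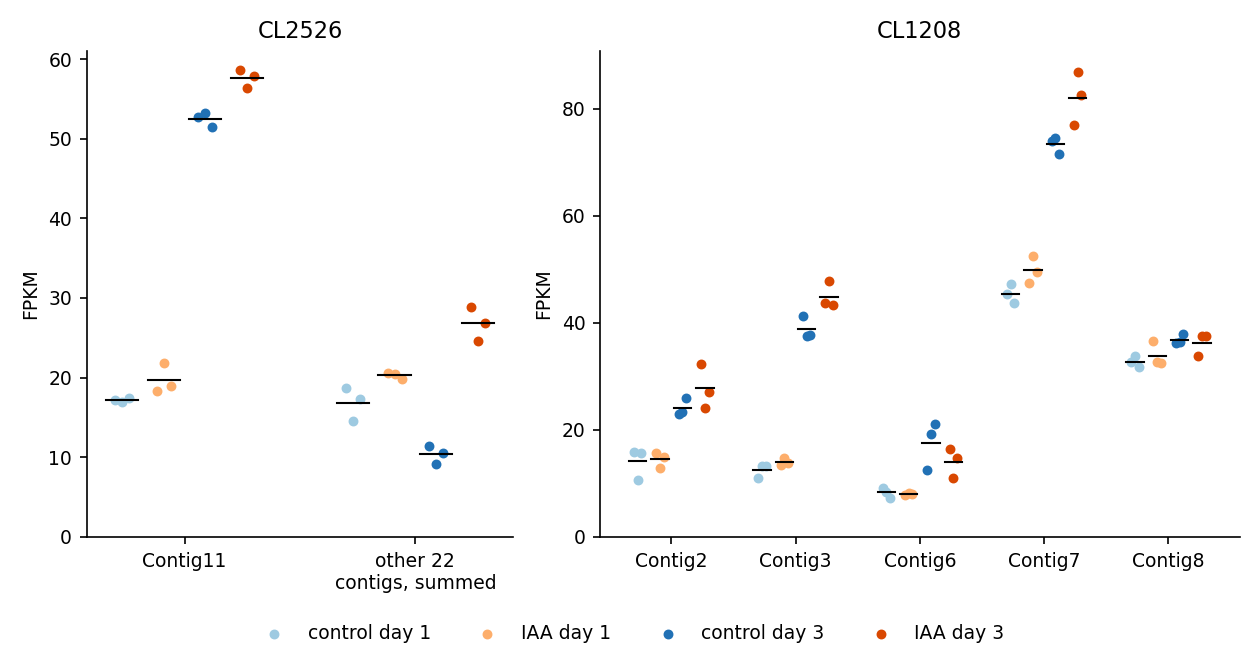
FPKM (vertical axes) of CL2526.Contig11_All and of the sum of the other 22 contigs of CL2526 (left), and of the 5 contigs of CL1208 (right), by contig along the horizontal axes; points are libraries and bars are the means of 3. The sum of the other contigs of CL2526 is lower at day 3 in the controls and higher with IAA, while 4 contigs of CL1208 are higher at day 3 and the one at 32.7 FPKM in control day 1 is nearly level.

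In CL880, CL880.Contig1_All was measured at 0.70, 3.34 and 4.25 FPKM in control day 1 and at 1.06, 0.69 and 0.70 FPKM in control day 3, so the days overlap. CL880.Contig2_All, which holds nearly all of the cluster, went from 56.3 ± 1.78 to 115 ± 3.70 FPKM in the controls (SD, n = 3). Its log2 ratio rose by 1.92 ± 0.49 (SE) and that of the scarce contig fell by as much, with a limma adjusted p of 0.0264. That p was 0.0908 and 0.0912 without replicates 2 and 3 of control day 1, and 0.0596, 0.0796 and 0.0715 without replicates 1, 2 and 3 of control day 3. With 0.1 FPKM added in place of 1 the limma adjusted p was 0.221.

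In CL401 the scarce contig, CL401.Contig2_All, was measured at 0.63, 0.89 and 0 FPKM in control day 3 and at 4.24, 2.08 and 7.84 FPKM in IAA day 3, without overlap. CL401.Contig1_All, at 65.2 ± 0.843 FPKM in control day 3 and 61.5 ± 1.04 FPKM in IAA day 3 (SD, n = 3), held the rest. The log2 ratio of the scarce contig was higher with IAA at day 3 by 1.93 ± 0.45 (SE) and that of the other lower by as much, at a limma adjusted p of 0.0317. That p was 0.0767, 0.0528 and 0.114 without replicates 1, 2 and 3 of control day 3, and 0.0893 and 0.103 without replicates 1 and 3 of IAA day 3. The limma adjusted p was 0.0773 with these groups fitted alone and 0.0520 with 0.1 FPKM added, where the difference was 3.43. The cluster with the smallest IAA difference in its sum thus held a contig whose level did not overlap between the treatments at day 3. Its call there was lost in 8 of 18 alternatives. At day 1 this contig was measured at 1.97, 1.24 and 2.64 FPKM in the controls and 2.71, 8.59 and 6.39 FPKM with IAA, again without overlap. Its log2 ratio at day 1 was higher with IAA by 1.33 ± 0.45 (SE), at a limma adjusted p of 0.144. The change of its IAA effect between days had a limma adjusted p of 0.725.

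In CL882, of 4 contigs, CL882.Contig5_All was measured at 4.21, 3.93 and 3.50 FPKM in control day 1 and at 4.49, 5.91 and 5.20 FPKM in IAA day 1, without overlap. Its log2 ratio was higher with IAA by 0.46 ± 0.11 (SE), with a limma adjusted p of 0.0463. Without any one of the 11 libraries other than replicate 1 of IAA at day 1 that p lay between 0.0581 and 0.153. With the replicate number as a block the limma adjusted p was 0.0956, and 0.316 in a fit of day 1 alone. Over time with IAA this contig went from 5.20 ± 0.710 to 7.71 ± 0.856 FPKM (SD, n = 3). Its log2 ratio fell by 0.72 ± 0.11 (SE), with a limma adjusted p of 0.00241 that was 0.0013 to 0.0314 over the alternatives. In the controls another contig of CL882, described after its values were seen, was at 9.32 ± 0.682 and 11.6 ± 2.57 FPKM at day 1 and day 3 (SD, n = 3). It fell in log2 ratio by 0.64 ± 0.17 (SE), at a limma adjusted p of 0.0340. That p was 0.103, 0.0964 and 0.0535 without replicates 1, 2 and 3 of control day 1, 0.120 and 0.113 without replicates 1 and 2 of control day 3, and 0.0501 without replicate 3 of IAA day 3.

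In the most abundant cluster, 1 of the 2 contigs held between 99.4% and 99.7% of the FPKM in every library. The other was at 1.08 ± 0.110 and 1.08 ± 0.0306 FPKM in the controls and at 0.953 ± 0.142 and 1.14 ± 0.106 FPKM with IAA, at day 1 and day 3 (SD, n = 3). Its change of share over time followed the rise of its partner, since its own level was nearly the same on both days. This cluster was also called between IAA and control at day 3, at a limma adjusted p of 0.0216. There the scarce contig was at 1.08 and 1.14 FPKM in controls and IAA, close to the 1 FPKM added. Its partner was at 332 and 260 FPKM.

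The authors' deposited tables list sequences that changed between IAA and control on each day. At day 1 the authors' deposited table holds 836 sequences, or 2.72% of all 30780. Of the 98 sequences of the members it lists 2, a contig of CL401 as higher with IAA and a contig of CL880 as lower. At day 3 the authors' deposited table holds 2307 sequences, or 7.5% of all, and lists 12 of the 98, in 3 member clusters. Of the 10 listed contigs of CL2526, 9 stand higher with IAA and 1 lower in the authors' deposited table, and the contigs of CL401 and CL880 stand higher. Of the 53 single sequences 0 are listed on either day in the authors' deposited tables, which hold 2.13% of the single sequences of at least 5 FPKM at day 1 and 9.12% at day 3. The choice by small IAA differences bears on that count, since the limits were set on the sums.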

How the data were processed

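RNA from 12 libraries in 4 groups of 3 was sequenced. FPKM values with 2 decimals for 30780 assembled sequences were deposited by the authors, per the file headers. Bowtie2 2.2.5 is listed, without its role, in the submitters' processing notes. The authors' deposited tables of changed sequences hold log2 ratios with p-values and q-values. Their test, the assembler and the quantifier were not given in the sources used here. Whole reads could not be recovered from the FPKM, so no count test was run.

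FPKM was summed over contigs sharing the ID text before ".Contig" and group means were compared as log2(mean + 1). Contigs entered the share test when their mean, and that of the other contigs of the cluster, was at least 1 FPKM. The share test used limma 3.58.1 in R 4.3.3 with 4 group means, an abundance trend, two-sided, with Benjamini-Hochberg adjustment and a threshold of 0.05. It was tested on simulated data. Deviations from group means of same-numbered libraries correlated at 0.266, 0.183 and 0.138 between control and IAA at day 1. All were over 0.1, which no other pair of groups met. No label says that same-numbered libraries belong together, so a pairing at day 1 was assumed from these values alone. The main fit left it out, and the replicate block was an alternative. The contrast of IAA effects between days was added after the data were seen. Other steps used Python 3.11.15 with pandas 2.3.3 and numpy 2.4.6.

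Named IDs are the 2 members with the largest difference in each treatment and, per share comparison, the 2 contigs of member clusters with the largest rise and fall among those called. CL880, CL401 and CL882 contigs fall under this rule. CL2526 and CL1208 are named through their contigs. The contigs shown in the flagged results follow from the added contrast. The members and lists were chosen with earlier results of these data known. Alternatives covered the pseudocount, filters, scalings, limits, the replicate block and leaving out each library.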

Additional observations from a re-analysis of the deposited data

Results flagged for a closer look

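Each result here was picked out because the effect of IAA on a contig's log2 ratio to the other contigs of its cluster differed between day 3 and day 1 in limma with Benjamini-Hochberg adjustment over all contigs, a contrast added after the data were seen. CL2526.Contig11_All differed by -1.08 ± 0.17 (SE), with a limma adjusted p of 0.00613, and with 0.00338 to 0.0220 over the alternatives tried. At day 1 the IAA difference in its ratio was -0.08 and at day 3 it was -1.15, beside a sum of the other 22 contigs that stood at 1.20 and 2.57 times control.

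For the other contigs leaving out single libraries ended the calls while the differences kept their direction, at 0.84 to 1.05 for CL2526.Contig15_All, 0.72 to 0.94 for CL2526.Contig5_All, 2.54 to 3.41 for CL880.Contig1_All and -0.77 to -0.58 for CL882.Contig5_All. With 0.1 FPKM added in place of 1, the difference was 2.05 for CL2526.Contig15_All, at a limma adjusted p of 0.0317. For CL880.Contig1_All it was then 5.37, but at a limma adjusted p of 0.0946, so that call was lost. CL2526.Contig15_All differed by 0.91 ± 0.20 (SE) and CL2526.Contig5_All by 0.83 ± 0.19 (SE), with limma adjusted p of 0.0289 and 0.0369, which were 0.0119 to 0.0730 and 0.0130 to 0.0829 over the alternatives. Leaving out any library except replicate 3 of control day 1 and replicate 2 of control day 3 ended the first call, and any except replicate 1 of control day 1, replicate 3 of control day 3 and replicate 1 of IAA day 3 ended the second. CL880.Contig1_All differed by 2.86 ± 0.69 (SE) and its partner CL880.Contig2_All by -2.86 ± 0.69 (SE), with a limma adjusted p of 0.0479 that was 0.0111 to 0.104 over the alternatives. The scarce contig was at 0, 0 and 2.14 FPKM in IAA day 1 and at 4.12, 3.39 and 3.46 FPKM in IAA day 3. That call ended without any library except replicate 1 of control day 1 and replicate 3 of IAA day 1. Counting the other settings, it was lost in 14 of 17 alternatives. CL882.Contig5_All differed by -0.67 ± 0.16 (SE), with a limma adjusted p of 0.0444 that was 0.0245 to 0.101 over the alternatives, and its call ended without any library except replicate 1 of IAA day 1.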

How the results depend on the processing

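With median-of-ratios size factors 154 loci met the rule in place of 63, and with quantile normalization 110. The number was 39 with a highest group mean of at least 10 FPKM, 122 with one of at least 1 FPKM and 124 with no filter. It was 23 with differences over time of at least 1, 33 with IAA differences under 0.3 and 111 with no limit on them. Leaving out each library gave 59 to 68 loci, with 56 to 61 of the 63 among them; 38 of the 63 met the rule whichever library was left out, 25 were lost at least once, and 39 other loci entered. The members' median difference in the controls was 1.34 with size factors and 1.23 with quantile normalization. With IAA it was 1.24 and 1.15 with 0.1 and 0.5 FPKM added and 1.17 with size factors.

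Clusters with changed shares between days in the controls numbered 3 with a filter of 5 FPKM and 3 to 6 without single libraries. For IAA against control at day 3 they numbered 1 with 0.1 FPKM added, 1 with a filter of 5 FPKM and 1 to 3 without single libraries. At day 1 they numbered 0 with no filter, size factors or the 2 groups alone, and 0 to 1 without single libraries. For the change of the IAA effect between days they numbered 1 with 0.1 FPKM added and 1 to 2 without single libraries. With the replicate number as a block they numbered 6, 4, 0 and 2, for the controls over time, IAA over time, and IAA at day 1 and day 3, and 1 for the change of the IAA effect. A block in the fit of day 1 alone gave 0, and the call in CL401 at day 3 had a limma adjusted p of 0.0676 with the block. Outside the day 1 pairs, same-numbered libraries correlated at -0.16 to 0.12. The cause of these shifts was not tested. Scarce members may rest on few reads, as 1 read was worth a median of 0.253 FPKM over 681 scarce sequences. Their read numbers cannot be taken from that value, since it depends on sequence length, which is not known for the members.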
